A study of Mus musculus with 24 samples.

Results

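A set of 695 chromatin regions stood among the strongest ATAC-seq peaks of resting macrophages and not among those of macrophages given lipopolysaccharide (LPS), whether in a repeated or a single exposure. ATAC-seq maps accessible DNA, into which the Tn5 transposase inserts sequencing adapters. The 695 were chosen from 29811 regions (2.33%) on the peak ranks themselves. A region had to hold 1 of the 11000 strongest peaks in at least 5 of 7 media libraries, and in at most 2 of 7 LPSx2 and at most 2 of 8 LPSx1 libraries. Their loss of rank with LPS is therefore a description of how they were selected, and it is given without a test.

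All groups were macrophages that male mice of postnatal day 28 yielded after 7 days of bone marrow culture. The LPSx2 cultures had a first LPS pulse of 4 hours at 100 ng/ml, were washed, rested 20 hours without it, and then had the same dose for another 24 hours. The LPSx1 cultures had only the later 24 hours of LPS, and the media cultures had none. The mice were 4 BTBR T+ Itpr3tf/J (BTBR) and 4 C57BL6/J animals, and each gave 1 library per treatment. BTBR animals are numbered 2, 3, 5 and 8 and C57BL6/J animals 1, 4, 6 and 7, and each of the 4 sequencing lanes held 1 animal of each strain with all its libraries. The LPSx2 and media lists of C57BL6/J animal 6 held 1877 and 299 peaks and were left out, so the counts below are over 4 BTBR and 3 C57BL6/J libraries for LPSx2, 4 and 4 for LPSx1, and 4 and 3 for media.

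LPS, from the outer membrane of Gram-negative bacteria, binds the receptor Tlr4 and starts NF-kB, AP-1 and interferon signalling. A resting macrophage keeps its accessible chromatin mainly at promoters and at enhancers bound by PU.1 together with partners such as RUNX, C/EBP and AP-1 factors. Inflammatory stimulation opens further enhancers, and many genes of the resting programme, such as those for the uptake of dying cells and for lipid export, are known to be dampened.

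The kept lists held 15623 to 127242 merged peaks with LPSx2, 13957 to 112429 with LPSx1 and 11349 to 63125 in media, and the number of reads is unknown. Of 10 macrophage markers, a median of 7 (range 1 to 9) had a region in the LPSx2 libraries, 6.5 (2 to 9) in the LPSx1 libraries and 8 (4 to 9) in the media libraries. Of 7 B-cell markers 0 had a region in any library, and of 8 T-cell markers at most 1 did, in media. At most 3 of 9 neutrophil, 2 of 7 dendritic-cell, 1 of 9 stromal and 1 of 6 erythroid markers had a region in any library. Among all these markers, Mertk, Ltf and Clec9a were the nearest gene of 1 of the 695 regions each. The promoter share of the 11000 strongest peaks was 36.3% to 53.8% with LPSx2, 39.1% to 58.9% with LPSx1 and 42.8% to 71.8% in media. It moved with treatment and with lane, and its part in the results below was not tested. The kept libraries had 6 to 8 additional PCR cycles in lanes 1 and 2, and 10 to 13 in lanes 3 and 4. Lane and PCR cycles therefore cannot be told apart.

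The sequences below show the strongest media peak of 5 of the regions, chosen because they stood in all or nearly all media lists and together show both an ordinary distal site and the motifs searched for. Each is the whole peak on the forward strand of mm10, read from the GRCm38.p6 assembly, with motif matches on either strand in capitals. The Kcnj16 region (chr11:110993667-110993867, an intron) holds the IRF motif GAAANNGAA and the PU.1 motif GAGGAAGT on the reverse strand. The Klf4 region (chr4:55741440-55741640, intergenic) holds none of the 20 motifs searched. The Tmem53 region (chr4:117254006-117254206, an intron) holds the RUNX motif TGTGGTT, the C/EBP motif TTGCNNAA on the reverse strand and the PU.1 motif. The Cxcr4 region (chr1:128590841-128591041, an intron) holds the PU.1 motif on the reverse strand. The Tex44 region (chr1:86434435-86434635, intergenic) holds the SP/KLF motif GGGGCGGGG and the nuclear receptor half-site AGGTCA, both on the reverse strand, and the CRE motif TGACGTCA. No match overlaps another.
Kcnj16 region: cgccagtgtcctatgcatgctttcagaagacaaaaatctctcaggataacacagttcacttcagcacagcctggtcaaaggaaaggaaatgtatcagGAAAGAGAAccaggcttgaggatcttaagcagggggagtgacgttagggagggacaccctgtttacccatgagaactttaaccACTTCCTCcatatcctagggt
Klf4 region: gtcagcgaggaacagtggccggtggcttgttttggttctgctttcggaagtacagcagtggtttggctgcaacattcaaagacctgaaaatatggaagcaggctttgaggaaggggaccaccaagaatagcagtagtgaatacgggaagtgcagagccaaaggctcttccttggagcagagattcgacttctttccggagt
Tmem53 region: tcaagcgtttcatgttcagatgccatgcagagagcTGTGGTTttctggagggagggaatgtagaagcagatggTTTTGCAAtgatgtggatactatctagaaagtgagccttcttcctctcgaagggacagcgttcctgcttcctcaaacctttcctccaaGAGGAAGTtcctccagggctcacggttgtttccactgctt
Cxcr4 region: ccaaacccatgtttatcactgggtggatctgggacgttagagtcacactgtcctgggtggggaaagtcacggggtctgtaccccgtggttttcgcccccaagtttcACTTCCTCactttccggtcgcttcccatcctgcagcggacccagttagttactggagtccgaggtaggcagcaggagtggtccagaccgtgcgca
Tex44 region: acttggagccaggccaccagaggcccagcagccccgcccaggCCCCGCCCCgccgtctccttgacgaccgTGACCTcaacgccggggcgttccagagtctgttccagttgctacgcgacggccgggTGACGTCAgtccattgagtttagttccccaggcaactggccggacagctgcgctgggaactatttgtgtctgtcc

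Of the 695 regions, 100 (14.4%) were among the strongest peaks of all 7 media libraries, 187 (26.9%) of 6 and 408 (58.7%) of 5. In the LPS libraries 129 (18.6%) were among the strongest peaks of 0 of 15, 96 were so only in LPSx2 libraries, 136 only in LPSx1 libraries and 334 in at least 1 library of each. A rank score of 1 marks the strongest peak of a library, and 0 marks a region that holds none of the 11000 strongest. The median rank score of the 695 was 0.0171 with LPSx2, 0.0247 with LPSx1 and 0.294 in media. In media they were of middling strength, since the 5097 regions kept by all treatments (detected in at least 5 libraries of each) had a median of 0.650 there. The 67 regions just inside the rule (5 media, 2 LPSx2 and 2 LPSx1 libraries) had median scores of 0.0755 with LPSx2, 0.0614 with LPSx1 and 0.254 in media. Just outside, 703 regions missed by a single media library, with 0.00543, 0.0158 and 0.189, and 376 had 3 libraries of one or both LPS schedules, with 0.0901, 0.10 and 0.333. The count changed when single animals were left out: it was 409, 398, 454 and 446 without animals 1, 4, 7 and 8, and 596, 556, 484 and 766 without animals 2, 3, 5 and 6. The limits of 5 media libraries and 2 of each LPS schedule stayed the same with fewer libraries. Part of the change is therefore built into the rule. It was 372 when the duplicated peaks of 7 lists were not merged.

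The data go against calling these regions closed, and they are called down-ranked here. Counting peaks of any rank, 611 of the 695 (87.9%) still had a peak in at least 8 of the 15 whole LPS lists. Of the 695, 12 had one in all 15 and 0 had one in none. The median was 11 of 15 lists. For comparison, 4252 of the 5097 kept regions (83.4%) had a peak in all 15. The share of all 29811 regions at the limit of 8 lists is not given here. In BTBR animal 2, which had the longest lists, 692 down-ranked regions (99.6%) were in the LPSx2 list of 127242 peaks, 690 (99.3%) in the LPSx1 list of 112429 peaks and 692 (99.6%) in the media list of 63125 peaks. In BTBR animal 8, which had the shortest LPS lists, 215 (30.9%) were in the LPSx2 list of 15623 peaks, 266 (38.3%) in the LPSx1 list of 13957 peaks and 687 (98.8%) in the media list of 25892 peaks. Of all 29811 regions, the LPSx2, LPSx1 and media lists of animal 2 held 28639, 28221 and 26118. Most regions of any kind were thus listed there. Those of animal 8 held 13880, 12951 and 19984. The share of down-ranked regions listed was lowest in the shortest LPS lists. Lists of similar length also differed, with 90.4% in the LPSx2 list of BTBR animal 3 (33339 peaks) and 70.6% in that of C57BL6/J animal 1 (33184 peaks). In bulk libraries a weaker peak in every cell and a peak lost from some of the cells cannot be told apart. Ranks are also relative, so an unchanged peak loses rank where other peaks gain it, and ranks cannot tell this from a loss.

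**Figure D1:**
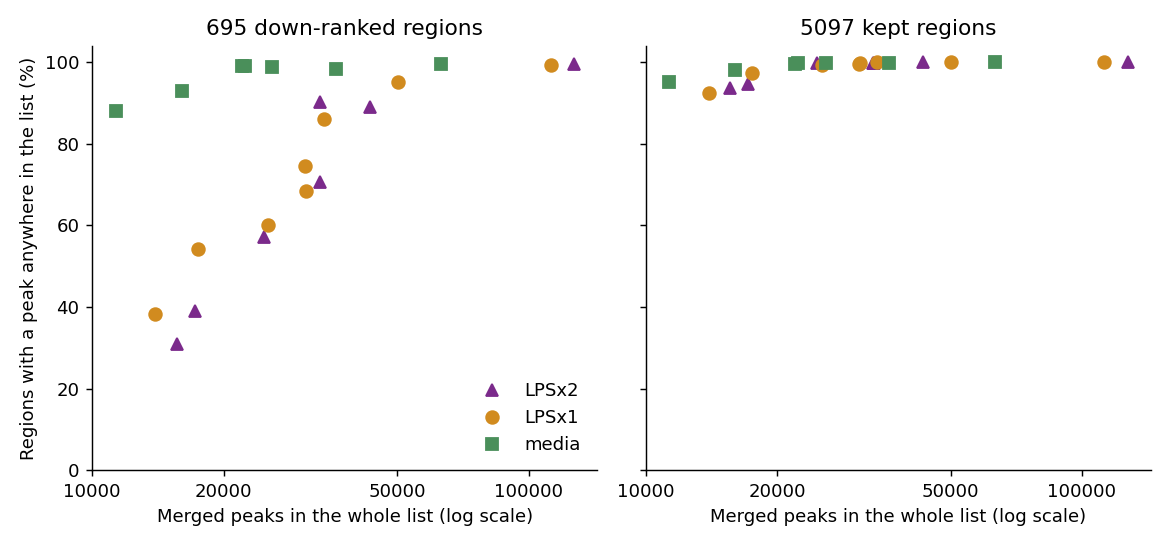
Share of regions with a peak anywhere in the whole list (y axis, percent) against the number of merged peaks in that list (x axis, log scale), 1 point per library, for the 695 down-ranked regions (left) and the 5097 kept regions (right). Down-ranked regions were listed in 30.9% to 99.6% of cases with LPSx2 and 38.3% to 99.3% with LPSx1, with the lowest values in the shortest lists, and in 88.1% to 99.6% in media.

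The number of peaks can also be held the same. In the libraries with at least 22000 peaks, the 22000 strongest held 42.2% to 71.8% of the down-ranked regions with LPSx2 (5 libraries, median 54.5%), 46.5% to 66.9% with LPSx1 (6 libraries, median 54.2%) and 89.2% to 99.1% in media (5 libraries, median 98.3%). The LPS and media libraries did not overlap at this limit, which the selection on rank fixes in part. Within BTBR animal 2, of the 431 regions in the top 11000 of media, 430 were in the whole LPSx2 list, and 393 of them had a lower rank there than in media. Within C57BL6/J animal 7, of 563 such regions 500 were in the LPSx2 list, 493 with a lower rank, at a median rank of 19651 with LPSx2 and 6291 in media. The share still listed with LPSx2 was 99.8%, 92.7%, 43.4% and 34.2% in BTBR animals 2, 3, 5 and 8 and 70.4%, 56.2% and 88.8% in C57BL6/J animals 1, 4 and 7. Only 2 down-ranked regions had a peak in no more than 1 whole LPS list. They lay 31.0 kb upstream of Itgb1, the beta-1 integrin gene, and 129.2 kb downstream of the start of Sec61b, which encodes a subunit of the protein translocation channel. The Itgb1 region (chromosome 8, 128654499 to 128654759) was listed in 0 of 7 LPSx2 libraries, in 1 of 8 LPSx1 libraries at rank 11742, and in 5 of 7 media libraries at ranks 993 to 8979.

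More of the down-ranked regions stayed among the strongest LPS peaks of BTBR than of C57BL6/J macrophages. With LPSx2, 138, 139, 117 and 99 down-ranked regions were in the top 11000 of BTBR animals 2, 3, 5 and 8, against 38, 36 and 61 in C57BL6/J animals 1, 4 and 7. The strains did not overlap. With LPSx1 there were 84, 74, 154 and 186 in BTBR and 55, 38, 53 and 82 in C57BL6/J animals 1, 4, 6 and 7, and the strains overlapped. Within a lane, the BTBR library held more of them in 7 of 7 LPS comparisons. These rest on the animal pairs of 4 lanes, as lanes 1, 2 and 4 count under both schedules, so they are not independent. In media the counts were 431, 492, 564 and 576 in BTBR and 608, 628 and 563 in C57BL6/J, with more in BTBR in 1 of 3 lanes. The 5097 kept regions numbered 4456 to 4939 in the top 11000 of BTBR LPSx2 libraries and 4657 to 4862 in those of C57BL6/J. The rule used all of these values, so no test is made. The promoter members moved with the lane and its PCR cycles: the LPSx2 libraries of BTBR animals 5 and 8 held 91 and 68 of them, and those of animals 2 and 3 held 44 and 51. The part of lane and PCR cycles in the strain values was not tested.

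**Figure D2:**
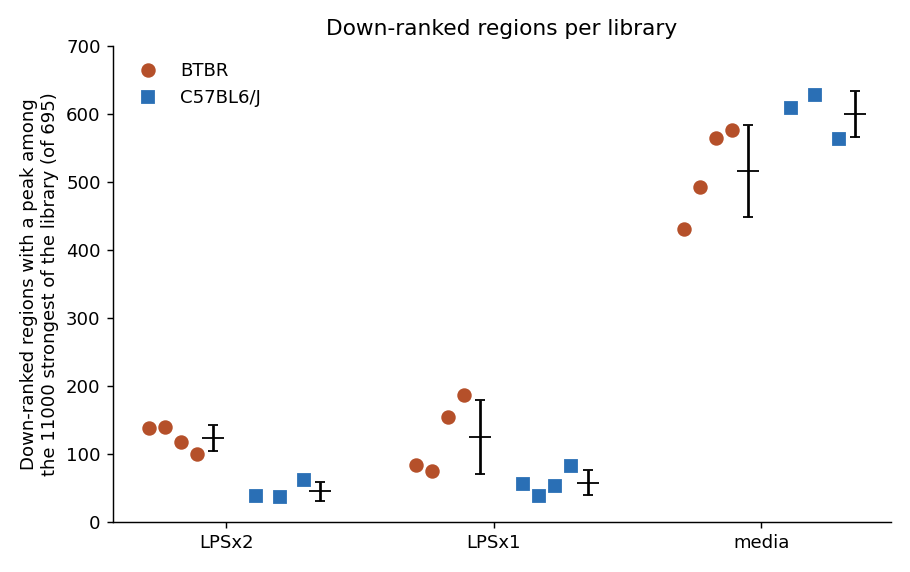
Number of the 695 down-ranked regions with a peak among the 11000 strongest (y axis) in each library, by treatment, with BTBR (circles) left of C57BL6/J (squares) and the mean ± SD of each group beside its points. BTBR held 123 ± 19.1 (n = 4) and C57BL6/J 45.0 ± 13.9 (n = 3) with LPSx2, values that the selection used.

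The clearest members were 15 regions among the strongest peaks of all 7 media libraries and of 0 of 15 LPS libraries, of which 14 were distal, meaning over 1 kb from a transcription start site (TSS). Their mean media rank scores ran between 0.253 and 0.666. They were still listed in 4 to 10 of the 15 whole LPS lists, never above rank 12318. They are named by the nearest protein-coding gene. The Kcnj16 region lay in an intron of this potassium channel subunit gene, 3720 bp upstream of its nearest annotated start. It ranked 353, 3163, 3874 and 3516 in the media libraries of BTBR animals 2, 3, 5 and 8 and 1576, 2515 and 10754 in those of C57BL6/J animals 1, 4 and 7. Its LPSx2 ranks were 31321, 25336 and 13123 in BTBR animals 2, 3 and 5 and 23739 in C57BL6/J animal 7, and it was not listed in the other 3. With LPSx1 it was listed in 5 of 8 libraries, at ranks 13454 to 41740. All media ranks were above all LPS ranks, which the choice of the 15 fixes, and the lowest media rank was in C57BL6/J animal 7.

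A region 209.1 kb upstream of Klf4, a zinc-finger factor of monocyte differentiation, was listed in 3 of 7 LPSx2 libraries at ranks 19044 to 27902, in 4 of 8 LPSx1 libraries at ranks 23274 to 37615 and in 7 of 7 media libraries at ranks 487 to 8831, median 4250. A second down-ranked region lay 522 bp upstream of the same gene, at its promoter, and was listed in 5 of 7 LPSx2 libraries at ranks 12459 to 29730, 7 of 8 LPSx1 libraries at ranks 9455 to 25674 and 7 of 7 media libraries at ranks 1942 to 17033. The promoter region overlapped between media and LPS while the far one did not. The far region belongs to the clearest members, and their choice fixes the separation of its ranks. The promoter region was chosen by the looser rule alone. The contrast between these sites therefore follows in part from the selection, and it was not tested. The intronic region of Cxcr4, the receptor for the chemokine Cxcl12, was listed in 2 of 7 LPSx2 libraries at ranks 16897 and 18233, in 2 of 8 LPSx1 libraries at ranks 25435 and 34105 and in all media libraries at ranks 5996 to 10282. All 4 of these LPS lists came from BTBR animals 2 and 3. The region 159.5 kb upstream of Zeb2, a transcriptional repressor, was listed in 4 LPSx2, 4 LPSx1 and 7 media libraries, with a best rank of 15951, 15519 and 4740.

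Other members of the 15 lay near Usp2, a deubiquitinase gene, and Tmem86a, a lysoplasmalogenase gene. The Usp2 region was listed in 3 LPSx2 libraries at ranks 12535 to 22407, in 4 LPSx1 libraries at ranks 12333 to 21928 and in 7 media libraries at ranks 1090 to 8815. The Tmem86a region was listed in 2 LPSx2, 2 LPSx1 and 7 media libraries, at ranks of 14740 and 19479, 29189 and 38019, and 2650 to 8195. Another 8 were nearest to Frmd4b, Vcpkmt, Tmem53, Tmed10, which encodes a cargo receptor of early secretion, Apbb2, Ap5s1, Gltp, a glycolipid transfer protein gene, and Sag. The whole LPSx2 lists held 15, 14, 1 and 0 of the 15 in BTBR animals 2, 3, 5 and 8 and 4, 1 and 10 in C57BL6/J animals 1, 4 and 7. Lists of similar length differed: BTBR animal 3 had 33339 LPSx2 peaks and 14 of the regions, and C57BL6/J animal 1 had 33184 peaks and 4.

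**Figure D3:**
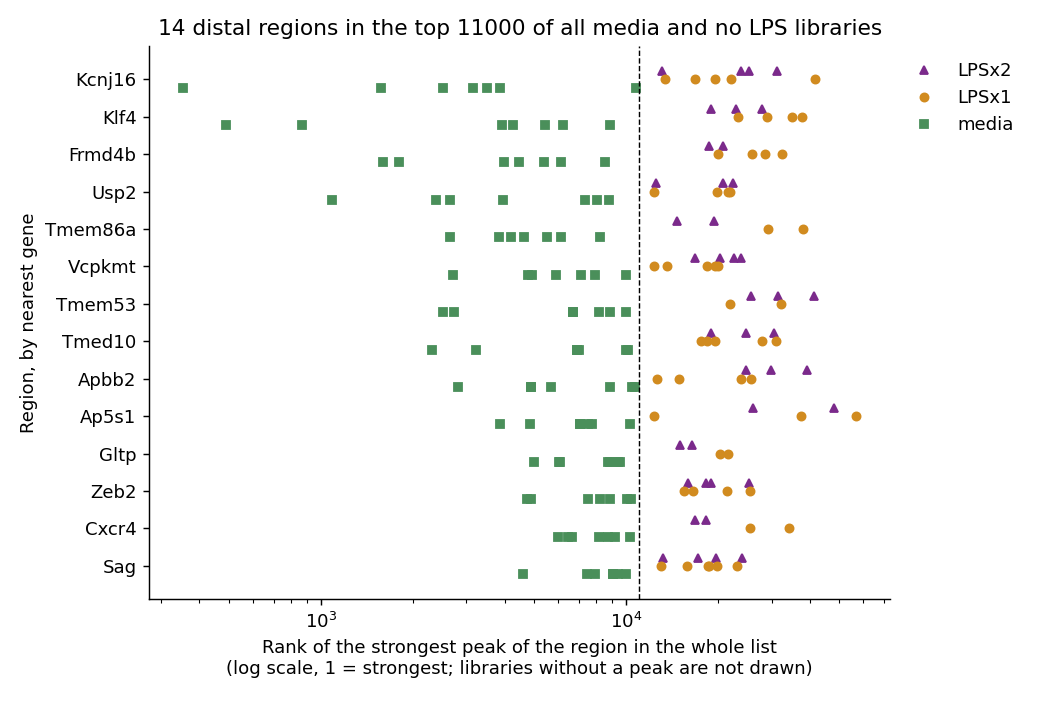
Rank of the strongest peak of each of the 14 distal regions among the 15 in the whole list of every kept library (x axis, log scale, 1 being strongest), with LPSx2, LPSx1 and media drawn from top to bottom within each region. All media ranks lie left of the dashed line at rank 11000 and all LPS ranks right of it, which is how the 15 were chosen.

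The 3 down-ranked regions with the highest media rank scores lay near Pwwp2b, Gnai2 and Dusp10. The region 25035 bp downstream of the start of Pwwp2b was listed in 6 of 7 LPSx2 libraries at ranks 6865 to 25897, in 7 of 8 LPSx1 libraries at ranks 10331 to 25479 and in all media libraries at ranks 698 to 3613. The region 4940 bp upstream of Gnai2, an inhibitory G-protein alpha subunit gene used by chemokine receptors, had ranks of 7255 to 42081 in 5 LPSx2 libraries, 16060 to 27220 in 5 LPSx1 libraries and 486 to 4044 in the 7 media libraries. The region 33.4 kb upstream of Dusp10, a phosphatase gene of the p38 and JNK kinases, had ranks of 9953 to 28955 in 6 LPSx2 libraries, 5108 to 34126 in 7 LPSx1 libraries and 625 to 4689 in the 7 media libraries. These strong media sites did not overlap in rank between media and LPS, though 2, 2 and 1 LPSx2 libraries and 1, 0 and 1 LPSx1 libraries kept them in the top 11000. Their choice by media rank favours this separation.

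Down-ranked regions were spread thinly over genes. Of the 695, 651 had the TSS of a protein-coding gene within 100 kb, 631 genes were nearest to at least 1 and 18 to 2 or more. They made up 8.62% of the 7548 media regions (detected in at least 5 media libraries) within 100 kb of a TSS, and 10.4% of the 6057 genes with such a region had at least 1. Tex44, a testis-expressed gene, had 3 down-ranked regions, which were all 3 of its media regions. They lay 8206, 15869 and 44424 bp downstream of its TSS. The nearest of them was listed in 4 LPSx2 libraries at ranks 9779 to 19118, in 5 LPSx1 libraries at ranks 10422 to 26553 and in 7 media libraries at ranks 2155 to 10664. The most remote Tex44 region, 44.4 kb downstream of its TSS, was listed in 4 LPSx2 libraries at ranks 12212 to 34705, in 8 LPSx1 libraries at ranks 4667 to 33566 and in 7 media libraries at ranks 995 to 9236.

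Genes of phagocytosis and efferocytosis, the uptake of dying cells, held 6 down-ranked regions among 21 media regions (28.6%, against 8.62% over all genes), at 6 of the 12 genes with a media region. They were Axl and Mertk, receptor kinases that bind apoptotic cells through bridging ligands, Elmo1, the adaptor that activates Rac with Dock proteins, Itgav and Itgb5, an integrin pair, and C1qa, a chain of complement C1q. The lists were chosen with earlier results of these data known, and the 8.62% is not matched for position. At any distance from a gene, 348 down-ranked and 2433 other media regions were distal, against 347 and 4783 at promoters. An intronic Elmo1 region (chromosome 13, 20208115 to 20208480) had ranks of 9813 to 25898 in 5 LPSx2 libraries, 9383 to 43595 in 5 LPSx1 libraries and 391 to 4080 in the 7 media libraries. The Axl region, annotated as intronic and 2282 bp upstream of the nearest Axl start, had ranks of 11146 to 22486 in 3 LPSx2 libraries, 8349 to 21964 in 5 LPSx1 libraries and 1439 to 5412 in the 7 media libraries. The Itgb5 region had ranks of 10449 to 26048 in 4 LPSx2 libraries, 9680 to 20209 in 6 LPSx1 libraries and 1764 to 8029 in the 7 media libraries. At Axl, Elmo1 and Itgb5 the media ranks lay above all LPS ranks, while at Mertk, Itgav and C1qa they overlapped. The Mertk promoter region had ranks of 6719 to 38779 in 4 LPSx2 libraries, 6731 to 21942 in 7 LPSx1 libraries and 4481 to 13963 in the 7 media libraries. The Itgav region, 9517 bp upstream, had ranks of 8166 to 20466 in 5 LPSx2 libraries, 13588 to 39596 in 5 LPSx1 libraries and 3131 to 11662 in the 7 media libraries. The C1qa promoter region was weaker, with ranks of 9439 to 37044 in 5 LPSx2, 11293 to 28983 in 5 LPSx1 and 3930 to 10437 in 5 media libraries.

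The AP-1 and immediate early factors held 6 down-ranked regions among 29 media regions (20.7%), at 6 of 14 genes. They lay at the promoters of Egr1 and Egr2 and upstream of Egr3, zinc-finger factors induced within minutes of stimulation, upstream of Fos and Fosb, which encode AP-1 subunits, and 37.7 kb upstream of Bach1, a repressor of haem-responsive genes. The Bach1 region had ranks of 15438 to 27214 in 4 LPSx2 libraries, 9772 to 28075 in 6 LPSx1 libraries and 2484 to 7143 in the 7 media libraries. The Fos region, 1663 bp upstream, had ranks of 12751 to 29548 in 4 LPSx2 libraries, 8921 to 31171 in 3 LPSx1 libraries and 4368 to 16878 in the 7 media libraries. The Egr2 promoter region stood at ranks 5679 to 18994 in 4 LPSx2, 11881 to 27596 in 5 LPSx1 and 3295 to 13998 in 7 media libraries. The Fos, Fosb, Egr1, Egr2 and Egr3 ranks overlapped between media and LPS, and only those at Bach1 did not.

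Chemotactic and purinergic receptors held 5 of 17 media regions (29.4%), at Cxcr4, Nrp1 (2 regions), P2ry13 and Plxnd1. Nrp1 encodes neuropilin, Plxnd1 a semaphorin receptor and P2ry13 a receptor for ADP. The Nrp1 region 1978 bp upstream had ranks of 6987 to 27796 in 7 LPSx2 libraries, 9084 to 34465 in 7 LPSx1 libraries and 1031 to 5571 in the 7 media libraries. Cytoskeleton and small GTPase regulators held 4 of 18 (22.2%), at Arhgap25, Coro1c, Lcp1, which encodes the actin bundler L-plastin, and Rhob. Cholesterol, LXR and fatty acid genes held 3 of 19 (15.8%), among them Abcg1, an exporter of cholesterol, and Fasn, the fatty acid synthase. The Abcg1 region lay 19.1 kb upstream, with ranks of 7605 to 22744 in 5 LPSx2, 12034 to 21693 in 7 LPSx1 and 4339 to 9760 in 6 media libraries.

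The other lists held between 0 and 3 down-ranked regions each. NF-kB pathway genes held 2 of 15 (13.3%), at the promoters of Nfkb1, which encodes p105 and p50, and Tnfaip3, which encodes the inhibitor A20. The Tnfaip3 region was in the top 11000 of 0 LPS libraries, with ranks of 20538 to 32353 in 5 LPSx2 libraries, 12761 to 28558 in 6 LPSx1 libraries and 2910 to 13736 in the 7 media libraries. Glucocorticoid response genes held 3 of 25 (12.0%), at Dusp1, a MAP kinase phosphatase gene, and Zfp36, which encodes an mRNA decay factor, with 2. TGF-beta and SMAD genes held 3 of 29 (10.3%: Tgfb1, Tgfbr2 and Id3), and RUNX, ETS and KLF factors 3 of 30 (10.0%: Ikzf1, Klf2 and Klf4, where the far Klf4 region is over 100 kb away and not counted). Inflammatory cytokines and mediators held 1 of 9 (11.1%), 43.5 kb from the start of Ptgs2, the cyclooxygenase-2 gene. Macrophage identity genes held 2 of 24 (8.33%, Mertk and the scavenger receptor gene Msr1) and lysosome genes 2 of 24 (8.33%, Gpnmb and Tfeb, a master factor of lysosomal genes). The Notch pathway held 1 of 14 (7.14%, 74.0 kb upstream of its target Hes1) and inhibitory myeloid receptors 1 of 16 (6.25%, Cd300a). Cell cycle genes held 0 of 18 and interferon-stimulated genes 0 of 6. The 16 lists are described by counts alone, some share genes, and nothing is called particular to a list.

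Down-ranked regions were at promoters less often than the other regions of resting macrophages and far more often than the up-ranked ones. Of the 695, 347 (49.9%) were promoter regions, with a TSS no more than 1 kb away, against 4783 of the 7216 other media regions (66.3%), 3437 of the 5097 kept regions (67.4%), 80 of the 853 up-ranked regions (9.38%) and 11345 of all 29811 (38.1%). Up-ranked regions are those chosen by the mirror rule, strong in both LPS schedules and weak in media. Another 123 (17.7%) lay over 1 and up to 10 kb away, 181 (26.0%) over 10 and up to 100 kb and 44 (6.33%) farther. By annotation 180 were intergenic, 159 intronic, 5 in untranslated regions and 4 in coding exons. The promoter share was 60.7% without animal 2 and 40.7% without animal 7, with the other 6 in between. At promoters 328 of 347 members (94.5%) had a peak in at least 8 of 15 whole LPS lists, and at distal sites 283 of 348 did (81.3%). This went with the lane, and so with the additional PCR cycles. A larger share of promoter than of distal members was listed in 7 of 7 LPS libraries of lanes 3 and 4, and in 1 of 8 of lanes 1 and 2. With LPSx2 the shares were 37.5% of promoter and 24.4% of distal members in BTBR animal 8 (lane 4), and 65.1% and 76.1% in C57BL6/J animal 1 (lane 1).

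**Figure D4:**
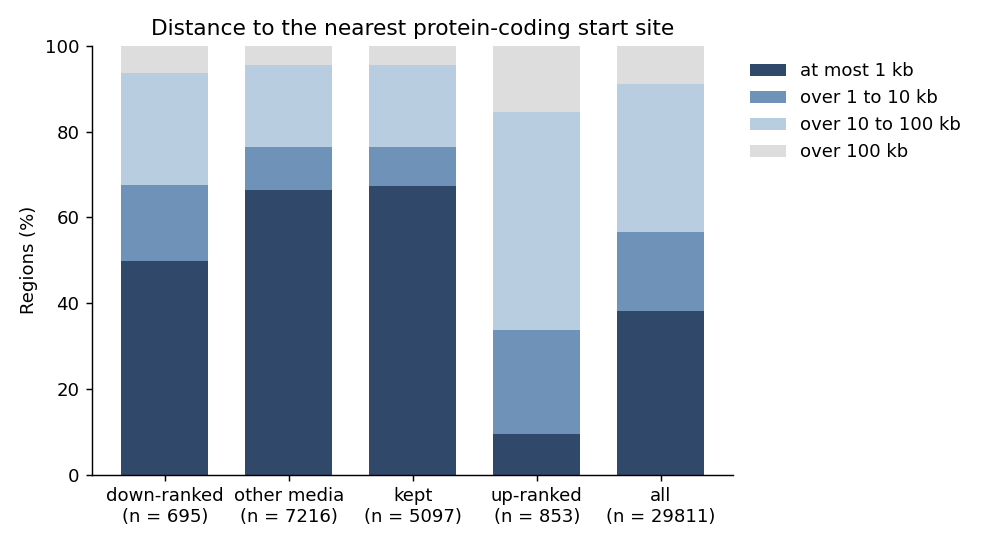
Share of regions (y axis, percent) by distance to the nearest protein-coding TSS, for the down-ranked regions and 4 comparison sets. Within 1 kb lay 49.9% of the down-ranked regions, fewer than of the other media (66.3%) and kept (67.4%) regions and more than of the up-ranked (9.38%).

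The sequence of the regions was not used to choose them, and 20 short motifs were searched on both strands of each whole merged region. Among distal regions, the AP-1 motif TGACTCA was in 62 of 348 down-ranked regions (17.8%, exact 95% interval 13.9 to 22.2), against 522 of 1660 kept regions (31.4%, 29.2 to 33.7) and 4805 of all 18466 distal regions (26.0%). Within the strongest media peak alone it was in 14.4% of down-ranked and 25.4% of kept distal regions. The PU.1 motif GAGGAAGT was in 58 distal down-ranked regions (16.7%, 12.9 to 21.0), against 18.4% of kept (16.5 to 20.3) and 13.2% of all distal regions. The RUNX motif TGTGGTT was in 61 (17.5%, 13.7 to 21.9), against 14.0% of kept (12.4 to 15.8) and 10.9% of all. The C/EBP motif TTGCNNAA was in 18.4% and the IRF motif GAAANNGAA in 14.1%, against 22.7% and 11.7% of kept distal regions. The MEF2 motif CTAAAAATA was rare, in 12 distal down-ranked regions (3.45%, 1.79 to 5.95), against 1.27% of kept (0.785 to 1.93) and 0.969% of all. The AP-1 interval lay wholly below that of the kept regions, while the PU.1, RUNX and MEF2 intervals overlapped theirs, which is not a test of no difference. Against all distal regions, the RUNX and MEF2 intervals lay wholly above (10.5 to 11.4 and 0.833 to 1.12 over all). The down-ranked distal regions were also wider (median 296 bp, against 248 bp for all distal regions), and the part of width was not tested. Within the strongest media peak alone, the intervals overlapped those of the 9607 distal regions with a media peak (RUNX 9.34 to 16.6 and 9.43 to 10.6, MEF2 0.812 to 4.10 and 0.867 to 1.29). The NF-kB motif GGANTTTCC was in 2.01% of down-ranked and 2.05% of kept distal regions.

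At promoters the share with an NFY motif was below that of the kept regions and near that of all promoter regions. CCAATCA, the box bound by NFY at many constitutive promoters, was in 30 of 347 (8.65%, 5.91 to 12.1), against 759 of 3437 kept promoters (22.1%, 20.7 to 23.5) and 11.3% of all promoter regions, a share inside the members' interval. Within the strongest media peak it was in 6.34% of down-ranked and 17.4% of kept promoters, and in 10.0% of all promoter regions with a media peak. The GC box of SP and KLF factors, GGGGCGGGG, was in 32.0% of down-ranked (27.1 to 37.2) and 30.2% of kept promoters (28.7 to 31.8), and the ETS motif CCGGAAGT in 11.5% (8.36 to 15.4) and 10.1% (9.11 to 11.2). Median GC content was 66.2% in down-ranked and 64.7% in kept promoters, and 50.7% and 51.2% in the distal regions. Down-ranked regions were a median of 305 bp wide and kept regions 332 bp, and down-ranked promoters also ranked lower in media than kept ones (median score 0.292 and 0.711), as did the distal ones (0.296 and 0.532). The part of strength in the NFY and AP-1 shares was not tested. Intervals cover counting error only, and neighbouring regions are not independent. Over all 695 regions the AP-1 motif stood in 11.1% and the PU.1 motif in 10.2%.

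**Figure D5:**
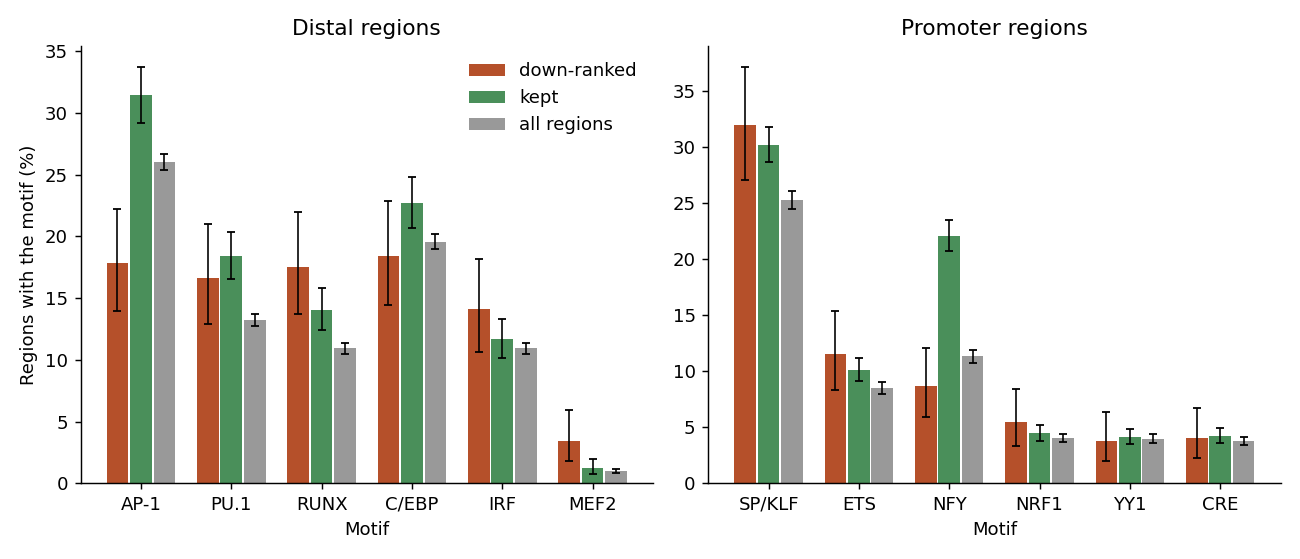
Share of regions with each motif (y axis, percent, with exact 95% binomial intervals) among distal (left) and promoter (right) regions, for down-ranked, kept and all regions. AP-1 was in 17.8% of down-ranked against 31.4% of kept distal regions, and NFY in 8.65% of down-ranked against 22.1% of kept and 11.3% of all promoters.

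The strains were also compared within media, on ranks that the rule had used. A member could be missing from the top 11000 of at most 2 of the 7 media libraries, which bounds the strain differences it could show, so the values describe the members and are no independent test. In a limma fit of the rank scores over all 22 libraries, 11 down-ranked regions (1.58%) were higher and 31 (4.46%) lower in BTBR media than in C57BL6/J media at an adjusted p under 0.05, against 0.572% and 0.899% of the 15905 regions tested. These calls ended when the media libraries were fitted alone, a fit added after the data were seen: 0 of the 695 passed (lowest limma adjusted p = 0.531), against 0.0599% of 15030 regions. At an unadjusted p under 0.05, 31 down-ranked regions (4.46%) passed there, against 4.86% of all, so the members stood at the background share. The fit over all libraries shares its spread with LPS libraries, in which the down-ranked regions are near 0 by choice. It also gave 0, 2, 3, 3, 11, 9 and 15 calls without animals 1, 2, 3, 4, 5, 7 and 8, and 0 when regions were scored as detected or not.

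Named by the lowest adjusted p of the first fit, the regions were nearest to BC005537, Tnr, Pisd, Eef1d, Ubap2l, Hnrnph1, Btg1, Naa25, Irf2 and Agap1. The region at BC005537 had a media rank score of 0.0889 ± 0.166 in BTBR (SD, n = 4) and 0.742 ± 0.207 in C57BL6/J (SD, n = 3), with a limma adjusted p of 0.000874 over all libraries and 0.531 in media alone. Tnr, the tenascin-R gene, had 0.635 ± 0.176 in BTBR and 0.0109 ± 0.0188 in C57BL6/J (limma adjusted p = 0.00211 and 0.588). Pisd, a phospholipid synthesis gene, had 0.0488 ± 0.0681 in BTBR and 0.664 ± 0.0768 in C57BL6/J (limma adjusted p = 0.00265 and 0.595). The BTBR and C57BL6/J media libraries did not overlap at these 3 regions. They were picked by the strain fit of these same scores, so the separation follows largely from the choice. The share of all tested regions without overlap is not given here. The estimated differences, BTBR minus C57BL6/J, moved little between the fit over all libraries and that of media alone: -0.69 and -0.65 at BC005537, 0.61 and 0.62 at Tnr, and -0.61 and -0.61 at Pisd.

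Between the LPS schedules 0 of the 695 regions differed (limma, LPSx2 minus LPSx1, lowest adjusted p among them 0.858), against 0.0% of 15905 regions. At an unadjusted p under 0.05, 0 of the 695 passed, against 5.9% of all regions tested (938). The rule put the same ceiling on both schedules, so little difference could remain. The median difference was -0.00330 on the rank score scale, with 309 regions higher and 386 lower in LPSx2. With the animal as a block the count was also 0.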

How the data were processed

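ATAC-seq peaks of 24 libraries were analysed. Per the submitters' processing notes, reads were processed with Trimmomatic 0.38, SAMtools 1.8, Picard 2.18.4, bedtools and HOMER on mm10, and peaks were called per library from fragments under 147 bp, per the series' design text. The aligner is not given in the sources used here. The authors deposited, for each peak, a score whose scale is not stated. It was used only for ranks within a list. In 7 lists 33.4% to 44.6% of peaks overlapped another, and overlapping peaks were reduced to the best one in every list. Lists under 5000 peaks were dropped, the 11000 strongest peaks per list were kept, and peaks overlapping by at least 1 bp were joined. The rank score is 11000 minus the rank, plus 1, divided by 11000.

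Rank scores were fitted with limma 3.58.1 in R 4.3.3 (trend and robust; 6 groups of strain by treatment, lane as covariate, regions detected in at least 5 libraries), with Benjamini-Hochberg adjustment over all regions tested. On simulated data in which 100 regions were shifted by 0.6, the fit over all libraries recovered 58% and the fit of media alone 21%. Of shifts of 0.3 they recovered 13% and 28%, over 15905 regions each. The fit of media alone thus recovered the larger shift less often. The simulated scores had normal noise, no lane effect and no bounds at 0 and 1, and the real fit of media alone tested 15030 regions. The shares therefore do not give the power of the real fits. Genes came from GENCODE M21. Same-numbered libraries come from 1 animal, per the labels, and their deviations correlated by -0.00232 to 0.656 in 21 pairs, 19 of them over 0.1. The members, gene lists and motifs were chosen with earlier results of these data known. The text names regions by fixed rules: those in all 7 media and 0 LPS libraries, genes with 3 or more, the 3 highest in media, the list genes, and up to 10 called in a fit. Some named regions are not reported here. The 2 regions least often listed with LPS were named after their values were seen. Alternatives were other list lengths, unmerged peaks, each animal left out, presence in place of rank, no filter, no lane and the animal as block.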

Additional observations from a re-analysis of the deposited data

Results flagged for a closer look

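A test for a single library far from the others was run on 50 groups of values, and chance flags about 1 in 20 groups. It marked 2. The LPSx1 library of C57BL6/J animal 1 held 33 distal down-ranked regions among its 11000 strongest peaks, against 22 to 23 in the other 3 C57BL6/J LPSx1 libraries. The rank score of the Kcnj16 region in the media library of C57BL6/J animal 7 was 0.0225, against 0.648 to 0.968 in the other 6 media libraries.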

How the results depend on the processing

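The number of down-ranked regions was 461 with the 8000 and 281 with the 5500 strongest peaks per list, 438 with no limit, 372 with peaks as deposited, 352 with at most 1 library of each LPS schedule, and 398 to 766 with each animal left out. It stayed within 1.5 times of 695 with lanes limited to their shortest list (888), no list dropped (695) and an overlap of 100 bp (673). The promoter share was 56.6% with 8000 peaks, 46.0% with peaks as deposited and 40.7% to 60.7% with animals left out. The PU.1 share was 12.9% with peaks as deposited, 7.77% within the strongest media peak alone and 9.17% to 12.6% with animals left out, and the AP-1 share was 8.78% within that peak and 9.56% to 12.8% with animals left out. Regions called between strains in media numbered 234, and 151 with 8000 peaks, 96 as deposited, 100 as detected or not, 102 with no lane, 59 to 223 with animals left out, and 9, 0 and 0 in media alone (no lane, detected or not, with lane). The down-ranked ones among them numbered 42, and 20, 3, 0, 23, 0 to 42, and 0, 0 and 0 in the same settings. Between LPSx2 and LPSx1, 7 regions passed as detected or not, none of them down-ranked, and the replicate block gave 0 and changed no call. All 10 regions named for the strain difference missed the threshold as detected or not and in media alone, with the same direction. The causes were not tested. Read depth is unknown, so a region missing from a short list may be below its reach.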

Other observations

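Of the 631 genes nearest to a down-ranked region, 36 (5.71%) were also nearest to an up-ranked one. Of the 5426 other genes with a media region 316 were (5.82%), so genes with a down-ranked region stood at the background share. The 36 were also a small part of the 650 genes nearest to an up-ranked region.

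The 2 lists left out, of C57BL6/J animal 6, held 0 of the 695 down-ranked regions each. They held 27.0% of the 5097 kept regions with LPSx2 and 1.51% in media.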
